A study of Mus musculus with 8 samples.

Results

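The enzymes of the mevalonate and isoprenoid pathway were followed in macrophages loaded with acetylated low-density lipoprotein (acLDL). The rule named 8 genes along the pathway, Acat2, Hmgcs1, Mvk, Pmvk, Mvd, Idi1, Fdps and Ggps1, and took for each the probe set annotated with that symbol. Of these 8, 7 were measured among 19938 genes tested, each by a probe set annotated with that symbol alone, and Acat2, the cytosolic thiolase that starts the pathway, was not analysed here. Idi1 had more than 1 such probe set, and the one with the higher mean over the 8 arrays was used.

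The cells were thioglycollate-elicited peritoneal macrophages of C57BL/6J mice, which enter the peritoneal cavity after an injection of an irritant broth and were harvested 5 days later. They were cultured in DMEM with serum, and 4 arrays of unloaded cells stood against 4 arrays of cells given acLDL, a chemically altered lipoprotein whose uptake by scavenger receptors turns macrophages into cholesterol-rich foam cells. The labels disagree on the exposure, with 20 µg/mL for 3 days in the sample protocols and 50 µg/mL for 2 days in the series description, so the dose and time are not settled. The series description calls the replicates of each condition independent, without saying which mice gave which culture, so p-values measure the spread between these arrays, which may be partly technical.

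The mevalonate pathway turns acetyl-CoA into isopentenyl diphosphate and its isomer, the building blocks of all isoprenoids. Farnesyl diphosphate, made from them, is the branch point. Squalene and then cholesterol arise from it on one side, and geranylgeranyl diphosphate, ubiquinone, dolichol and the lipid anchors of small GTPases on the others. Genes of the pathway are classical targets of the transcription factor SREBP2, which is held in the endoplasmic reticulum when sterols are plentiful. SREBP2 binds sterol regulatory elements in promoters together with partners such as NF-Y and Sp1. The comparison asked how cholesterol loading alters the transcripts of each step.

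The transcripts of 5 of the 7 measured enzymes fell with acLDL, 0 rose, and 2 did not pass the test (limma across all genes, Benjamini-Hochberg adjusted p under 0.05). By the same test 10.5% of all genes were lower with acLDL. The median log2 difference of the 7 enzymes was -1.12, against -0.0031 over all genes tested. The 5 that fell were Hmgcs1, Mvd, Idi1, Fdps and Ggps1, and 4 of them fell by at least 1.5-fold, as did 0.697% of all genes with an adjusted p under the same threshold. The middle kinases Mvk and Pmvk did not pass. The groups did not overlap in 6 of the 7, and 11.6% of all genes were apart and lower with acLDL (25.6% apart in either direction). All 7 differences were negative.

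**Figure D1:**
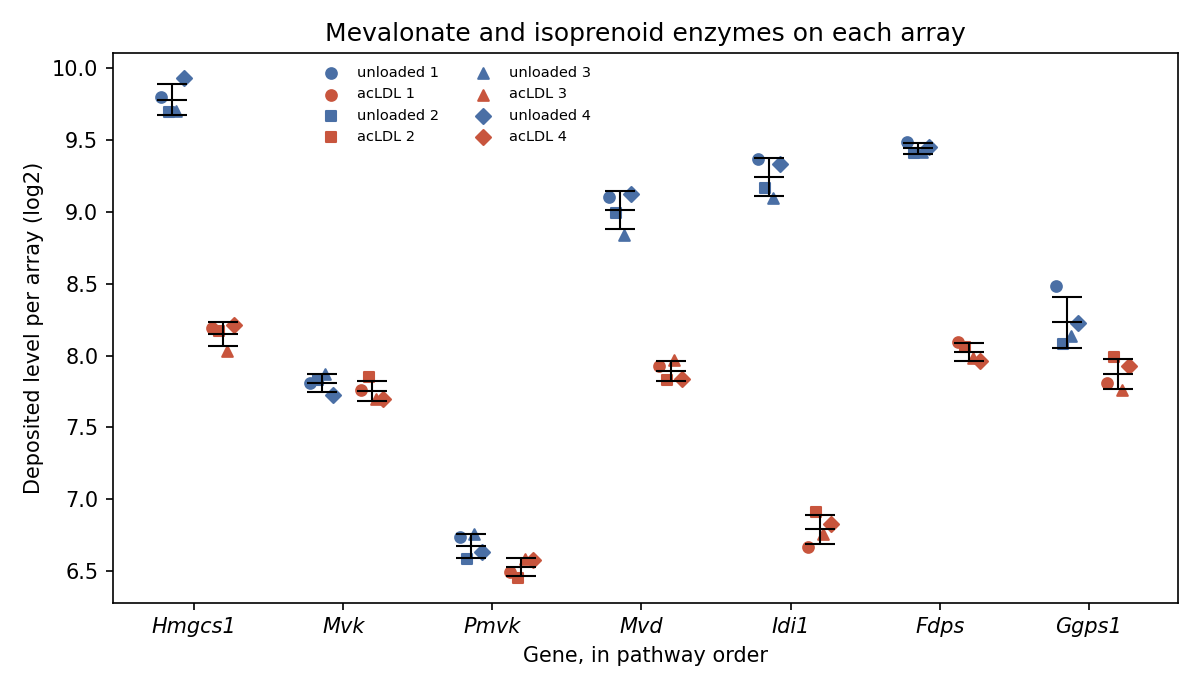
The deposited log2 level of each of the 7 enzymes (x axis, in pathway order) is plotted for every array, unloaded in blue and acLDL in red, with a marker shape for each replicate number and bars for the group mean ± SD (n = 4 arrays). The groups are far apart for Hmgcs1, Mvd, Idi1 and Fdps, close for Ggps1 and Pmvk, and overlapping for Mvk.

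Array levels come from robust multi-array averaging (RMA), which compresses differences, and levels of different probe sets are not comparable with each other. All 7 enzymes lay above 6.12 on every array, the 95th percentile of 1027 olfactory receptor genes, which served as a gauge of background. Deposited values ran from 2.63 to 14.27. Pearson correlations between arrays, taken across genes, which are not independent replicates, lay between 0.994 and 0.997 inside a group and between 0.989 and 0.991 across the groups. All 8 macrophage markers lay above the olfactory percentile, and their mean level was 10.33 to 10.45 on unloaded and 10.60 to 10.65 on acLDL arrays. Adgre1, Itgam, Mertk and Fcgr1 rose, by 0.59, 0.63, 0.33 and 0.71 on the log2 scale, and Cd14 fell by 0.33. The other 3, Cd68, Csf1r and Lyz2, did not pass, with differences of -0.09, -0.0018 and 0.06. Over all genes 12.9% were higher and 10.5% lower. Of 35 measured markers of 8 other cell types, 10 lay above it, 6 of them among the 7 fibroblast or mesothelial markers, whose mean level was 8.72 to 8.93 on unloaded and 8.62 to 8.73 on acLDL arrays. Col1a2 and Dcn of that list and Camp of the neutrophil list fell, by 0.37, 0.26 and 0.26 on the log2 scale. The other 32 of the 35 did not pass. The other 7 lists had means between 4.23 and 5.93. The part of such cells in the results was not tested, and fewer cells of a type and less RNA per cell cannot be told apart in these cultures.

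The first measured enzyme, Hmgcs1, is the cytosolic synthase that makes HMG-CoA. Its level was 9.80, 9.70, 9.70 and 9.93 on unloaded arrays 1 to 4 and 8.19, 8.17, 8.03 and 8.22 on acLDL arrays 1 to 4 (log2). Every acLDL array was lower than every unloaded array, with a gap of 1.48 between the groups and at most 0.24 between arrays of a group. The fall was 1.63 on the log2 scale (SE 0.07), which left 32.3% of the unloaded level (95% interval 29.0% to 35.9%, limma adjusted p = 5.86e-09). The reductase that follows it was not analysed here.

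Promoter sequences from RefSeq (build GRCm38.p6) are shown for Hmgcs1, whose promoter held a sterol element core, for Mvk, whose start lies close to that of a neighbour, and for Mvd and Idi1, the consecutive enzymes that fell after the kinases. The table held a promoter for 6 of the 7 measured enzymes, all but Fdps, and the 250 bases before each annotated start were searched on both strands. The motifs were TCACNCCAC, a core of the sterol regulatory element, CCAAT, the NF-Y box, and GGGCGG, the GC box bound by Sp1, and 0 matches overlapped each other in these promoters. In the sequences printed here, capitals mark matches to TCACNCCAC and to CCAAT or its reverse complement ATTGG. The sterol core was found in the Hmgcs1 window and not in those of the other 5 enzymes, and 1.05% of 32851 mouse promoter entries hold it. CCAAT was found in all 6, for Pmvk at 1 of its 2 listed starts, against 33.8% of entries, and GGGCGG in 4 (Hmgcs1, Mvk, Mvd and Idi1), against 32.7%. Such matches describe letters and are not shown to be bound here. A missing match to these strings in this window does not show that a promoter lacks such a site. The Hmgcs1 window is chr13:119690101-119690350 on the + strand, with the sterol core starting 137 bases before the start and 3 NF-Y boxes.
Hmgcs1: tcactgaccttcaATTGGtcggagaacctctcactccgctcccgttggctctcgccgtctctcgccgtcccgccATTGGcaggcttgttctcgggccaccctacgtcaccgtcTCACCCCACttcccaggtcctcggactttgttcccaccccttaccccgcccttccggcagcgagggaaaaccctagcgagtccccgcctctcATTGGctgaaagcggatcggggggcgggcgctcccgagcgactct

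The kinases came next. Mvk phosphorylates mevalonate, and its level was 7.81, 7.83, 7.87 and 7.72 on unloaded and 7.76, 7.85, 7.70 and 7.70 on acLDL arrays (log2, arrays 1 to 4). The groups overlapped, and the difference of -0.06 (log2, SE 0.06) did not pass (limma adjusted p = 0.575). Its 95% interval, -0.19 to 0.08, leaves between 87.5% and 106% of the unloaded level. Pmvk, the phosphomevalonate kinase, was at 6.74, 6.58, 6.76 and 6.63 on unloaded and 6.50, 6.45, 6.58 and 6.58 on acLDL arrays. The lowest unloaded and the highest acLDL array differed only in the fourth decimal place. The difference of -0.15 (log2, SE 0.06, 95% interval -0.29 to -0.01) did not pass after adjustment over all genes (limma adjusted p = 0.118). That interval leaves between 81.8% and 99.3% of the unloaded Pmvk level. Pmvk lay between 6.45 and 6.76 on all arrays, not far above the olfactory percentile of 6.12. RMA compresses dim genes, so the interval describes the array signal, and a fall of the transcript may be understated.

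Mvk lies head to head with Mmab, which encodes an adenosyltransferase of vitamin B12 metabolism, with starts 242 bases apart in the promoter table. The 190 bases that lie outside every annotated transcript of both genes, chr5:114444074-114444263 read on the + strand towards Mvk, are shown because they lie between this pair. They hold 5 NF-Y boxes and 0 sterol cores.
Mvk: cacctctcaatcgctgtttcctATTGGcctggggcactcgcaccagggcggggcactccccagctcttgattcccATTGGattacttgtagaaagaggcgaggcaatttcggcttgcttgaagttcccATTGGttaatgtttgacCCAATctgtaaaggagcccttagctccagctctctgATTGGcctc

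Mmab was at 7.20, 6.99, 7.11 and 7.03 on unloaded and 6.98, 6.84, 6.98 and 6.96 on acLDL arrays (log2, arrays 1 to 4). Its groups were apart by a narrow margin, and its difference of -0.14 (log2, SE 0.07) did not pass (limma adjusted p = 0.145). Neither gene of the pair passed the test.

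Mvd, the decarboxylase that yields isopentenyl diphosphate, stood at 9.11, 8.996, 8.84 and 9.12 on unloaded and 7.93, 7.83, 7.97 and 7.84 on acLDL arrays (log2, arrays 1 to 4). Its groups lay 0.87 apart. It fell by 1.12 on the log2 scale (SE 0.07, 2.18-fold, limma adjusted p = 3.31e-07). The 120 bases before the Mvd start, chr8:122443423-122443542 on the - strand, are shown beside those of Idi1, the next enzyme, chr13:8885486-8885605 on the + strand. Each stretch holds 2 NF-Y boxes.
Mvd: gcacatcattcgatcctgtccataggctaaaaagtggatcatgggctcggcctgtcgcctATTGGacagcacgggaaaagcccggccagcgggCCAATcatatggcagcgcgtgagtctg
Idi1: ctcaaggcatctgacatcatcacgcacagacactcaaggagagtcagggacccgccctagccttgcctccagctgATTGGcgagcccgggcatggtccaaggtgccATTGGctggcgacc

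Idi1, the isomerase that interconverts isopentenyl and dimethylallyl diphosphate, changed most. Its level was 9.37, 9.17, 9.10 and 9.33 on unloaded and 6.67, 6.91, 6.76 and 6.83 on acLDL arrays (log2, arrays 1 to 4), a gap of 2.19 between groups. By size its fall ranked 1 among the 19938 genes, and those of Hmgcs1, Fdps and Mvd ranked 6, 9 and 18. The acLDL level was 18.3% of the unloaded level (95% interval 16.3% to 20.5%, limma adjusted p = 7.71e-10). The acLDL arrays, at 6.67 to 6.91, lay not far above the olfactory percentile of 6.12. Background may be part of that remaining signal, and the interval measures only the spread between arrays. The second Idi1 probe set read 9.25, 8.97, 8.97 and 9.20 on unloaded and 6.58, 6.80, 6.63 and 6.53 on acLDL arrays, a log2 difference of -2.46 (SE 0.08) beside -2.45 (SE 0.08). Probe sequences were not used here, so whether these sets share probes, or also match a near-identical copy of the gene, is not known. Idi2, the paralogous isomerase, lay at 4.81 ± 0.24 on unloaded and 4.75 ± 0.18 on acLDL arrays (log2, SD, n = 4), below the olfactory percentile in both groups.

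Fdps, which joins these units into farnesyl diphosphate, was at 9.49, 9.41, 9.42 and 9.45 on unloaded and 8.10, 8.06, 7.99 and 7.96 on acLDL arrays (log2, arrays 1 to 4). Unloaded arrays differed by at most 0.08, and the groups lay 1.31 apart. Fdps fell by 1.42 on the log2 scale (SE 0.06), to 37.5% of the unloaded level (95% interval 34.3% to 41.0%, limma adjusted p = 4.70e-09).

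Ggps1, which extends farnesyl to geranylgeranyl diphosphate and so opens 1 of the non-sterol branches, changed less. Its level was 8.48, 8.08, 8.14 and 8.23 on unloaded and 7.81, 7.99, 7.76 and 7.93 on acLDL arrays (log2, arrays 1 to 4). The lowest unloaded array stood 0.09 above the highest acLDL array, and unloaded array 1 was the highest of all. Ggps1 fell by 0.36 on the log2 scale (SE 0.09, 1.28-fold, limma adjusted p = 0.00915), a fall that ranked 719 among all genes. Without unloaded arrays 1 and 4 together the difference was -0.24 (adjusted p = 0.0545) and did not pass, and without unloaded arrays 2 and 3 it was -0.48 (adjusted p = 0.00370).

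Ggps1 also lies head to head with another gene, Arid4b, whose product is a subunit of a histone deacetylase complex, with starts 296 bases apart in the promoter table. The 250 bases before the Ggps1 start hold 3 NF-Y boxes and 0 sterol cores, and are not printed because other annotated transcripts of both genes reach into them. Arid4b was at 7.97, 7.86, 7.98 and 8.21 on unloaded and 7.47, 7.52, 7.57 and 7.64 on acLDL arrays (log2, arrays 1 to 4), with no overlap. It fell by 0.46 on the log2 scale (SE 0.08, limma adjusted p = 0.000748), so both genes of this pair fell. The pair Mvk and Mmab had differences of -0.06 and -0.14, neither of which passed.

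**Figure D2:**
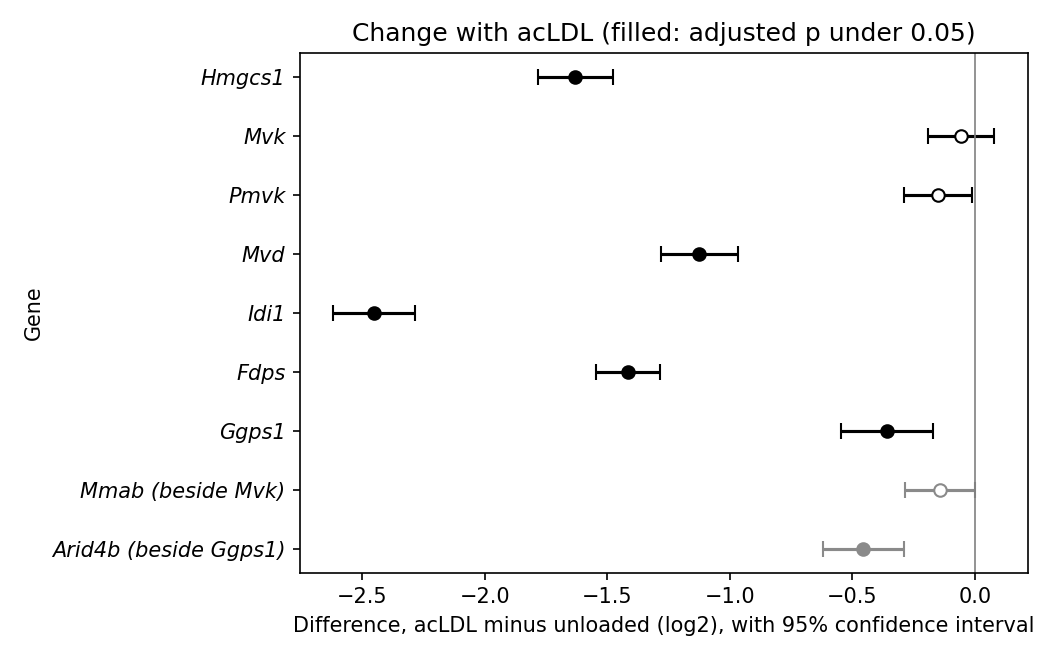
The log2 difference between acLDL and unloaded arrays (x axis) is drawn with its 95% confidence interval for the 7 enzymes in pathway order (black) and for the genes head to head with Mvk and Ggps1 (grey), filled where the limma adjusted p was under 0.05. Idi1 lies farthest from 0 at -2.45, and the intervals of Mvk and Pmvk end at 0.08 and -0.01.

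Whether the enzymes changed by unequal amounts was tested within arrays, by comparing the difference between 2 enzymes on acLDL and unloaded arrays, a measure from which any array-wide scaling cancels. Of 21 pairs, 19 changed unequally (two-sided exact permutation test, p = 0.0286, the smallest that 4 arrays against 4 can give, and 0.0316 after Benjamini-Hochberg adjustment over the 21 pairs). With this smallest p, a pair can pass the adjustment only when many other pairs also reach it. The pairs are built from the same 7 enzymes, so they are not independent findings. Idi1 fell by more than each of the other enzymes, from 0.82 more than Hmgcs1 to 2.40 more than Mvk (log2). Hmgcs1, which ranked next, fell by 0.22 more than Fdps, and Fdps by 0.29 more than Mvd. Mvd fell by 0.77 more than Ggps1. Ggps1 and Pmvk differed by 0.21 (exact p = 0.114, adjusted 0.120) and Pmvk and Mvk by 0.09 (exact p = 0.171, adjusted 0.171), and these pairs did not pass. Since RMA compresses differences by probe set, the order describes array signals.

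**Figure D3:**
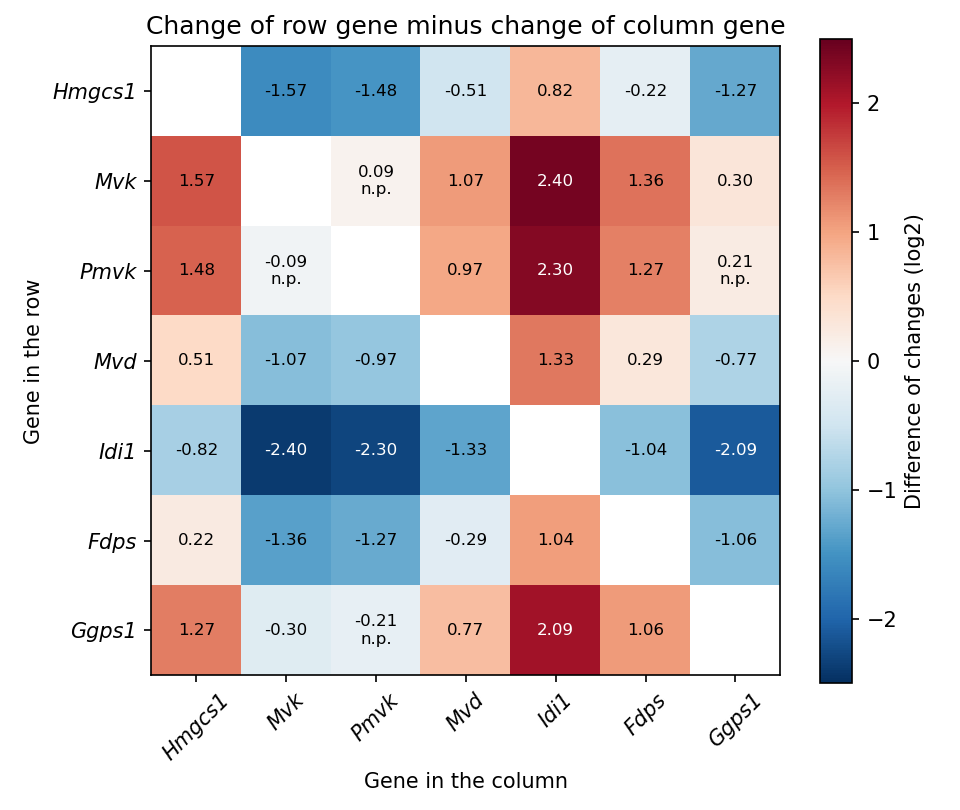
Each cell gives the log2 change with acLDL of the enzyme in the row minus that of the enzyme in the column, so blue marks a row enzyme that fell by more, and n.p. marks pairs that did not pass the exact permutation test after adjustment over 21 pairs. The Idi1 row is blue throughout, with sizes of 0.82 to 2.40.

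The unloaded arrays fell in a like order for several enzymes. In 5 of the 7, Hmgcs1, Mvd, Idi1, Fdps and Ggps1, unloaded arrays 1 and 4 both stood above arrays 2 and 3, which held for 28.9% of all genes. The log2 difference of Idi1 was -2.34 without unloaded arrays 1 and 4 and -2.56 without arrays 2 and 3. For Hmgcs1 these values were -1.55 and -1.71, for Mvd -1.03 and -1.22 and for Fdps -1.39 and -1.45, all past the threshold. What sets the arrays apart was not tested.

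Among the other genes, those with the most similar profiles were taken as the 2 nearest to each enzyme by Euclidean distance between centred log2 levels over the 8 arrays. Nearest to Idi1 were Cyp51, the lanosterol demethylase, at a distance of 0.27 and Sc5d, a sterol desaturase, at 0.80. Their log2 differences were -2.34 and -1.90. Insig1, which retains the SREBP escort protein in the endoplasmic reticulum, and Fdft1 lay nearest to Hmgcs1 at 0.22 and 0.29, and the sterol synthesis genes Msmo1 and Lss to Fdps at 0.18 and 0.19. Nearest to Mvd were Nsdhl, a sterol dehydrogenase, at 0.20 and Cxcr4, a chemokine receptor, at 0.31, and to Ggps1 Hacd4 at 0.12 and Cipc at 0.14. Within a distance of 0.5 lay 1 gene for Idi1, 7 for Hmgcs1, 10 for Fdps and 19 for Mvd, but 3081 for Ggps1, 13379 for Pmvk and 15264 for Mvk, whose profiles are close to flat, so that their nearest genes (Nox4 and Olfr204, BC040756 and Fam184b) are 2 of very many.

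Enzymes that feed, parallel or use the pathway were followed in lists of 57 genes, of which 50 were measured and 7 were not analysed here. Of the 50, 7 rose, 12 fell and 31 did not pass, against 12.9% of all genes higher and 10.5% lower (23.3% in either direction). After centring each array on its median, 8 rose and 8 fell, and without acLDL array 1, 4 rose and 8 fell, 12 calls in place of 19. Over all alternatives, 10 of the 19 calls held in each of 20 settings.

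Genes of acetyl-CoA supply fell in part. Of 4, 3 fell and 1 did not pass, against 10.5% of all genes lower, and the median log2 difference was -0.24. Acly, the citrate lyase that makes cytosolic acetyl-CoA, went from 9.76 ± 0.09 to 9.44 ± 0.06 (log2, SD, n = 4) and fell by 0.32 (SE 0.07, limma adjusted p = 0.00319). The acetyl-CoA synthetase genes Acss1 and Acss2 fell by 0.25 and 0.23, and each lost its call in 4 of 20 settings. These were median centring and, for Acss1, leaving out unloaded array 4, acLDL array 4 or unloaded arrays 1 and 4 (adjusted p up to 0.0805). For Acss2 they were leaving out acLDL array 1, acLDL array 4 or unloaded arrays 2 and 3 (adjusted p up to 0.0737). Slc25a1, the mitochondrial citrate carrier, differed by -0.11 (adjusted p = 0.235).

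Enzymes that run parallel reactions outside this route did not pass. Of 4 measured, 0 rose and 0 fell in limma, and 0 had an unadjusted p under 0.05. Acat1, the mitochondrial thiolase, stood at 7.34 ± 0.16 on unloaded and 7.24 ± 0.07 on acLDL arrays (log2, SD, n = 4), a difference of -0.10 (limma adjusted p = 0.417). Without unloaded arrays 2 and 3 it was -0.24 and passed (adjusted p = 0.0337). Acat3, a close paralog of Acat2, Hmgcll1, an HMG-CoA lyase-like enzyme, and Idi2 had levels below the olfactory percentile and differences of -0.06, 0.03 and -0.06.

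Fdft1, the squalene synthase that commits farnesyl diphosphate to sterols, was at 9.59, 9.54, 9.32 and 9.56 on unloaded and 8.13, 7.89, 7.78 and 7.96 on acLDL arrays (log2, arrays 1 to 4). It fell by 1.56 (SE 0.08, limma adjusted p = 4.57e-08), beside log2 differences of -1.42 for Fdps ahead of it and -0.36 for Ggps1. Averaged over the probe sets of Fdft1, the difference was larger, -1.68 (limma adjusted p = 4.21e-09). Ggps1 draws on the same substrate to make geranylgeranyl diphosphate.

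Genes that place isoprenoids into ubiquinone and dolichol mostly did not pass, and 12.9% of all genes were higher and 10.5% lower. Of 10 measured genes of the ubiquinone side chain and ring 1 rose, 0 fell and 9 did not pass, with a median log2 difference of 0.14. Coq2, which attaches the polyprenyl chain, rose by 0.20 (SE 0.06, limma adjusted p = 0.0324), a call lost in 8 of 20 settings (adjusted p 0.0595 to 0.0959). These were centring over the genes tested and leaving out unloaded array 2 or 4, acLDL array 1, 2 or 4, or either pair of unloaded arrays. Coq5 and Coq8b, named after their values were seen, differed by 0.27 and 0.21 (adjusted p = 0.0654 and 0.0563) and passed in 8 and 6 of 20 settings. For both these included the replicate block, the filter on dim genes, repeated quantile normalisation, the trended prior and leaving out acLDL array 3 (adjusted p down to 0.0136 and 0.0334). Coq9, a lipid-binding protein of ubiquinone synthesis, differed by -0.05. Of 6 dolichol genes 2 rose, 0 fell and 4 did not pass, with a median of -0.02. Srd5a3, the polyprenol reductase, and Dolpp1, a dolichyl diphosphatase, rose by 0.24 each. Srd5a3 lost its call without unloaded arrays 2 and 3 (adjusted p = 0.0607), and Dolpp1 without unloaded array 3, acLDL array 1 or that pair (adjusted p up to 0.0658). Nus1, a subunit of the cis-prenyltransferase, differed by -0.11 (adjusted p = 0.219), and passed after repeated quantile normalisation (-0.15, adjusted p = 0.0464).

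Enzymes that attach prenyl groups to proteins changed in part. Of 8 prenyltransferase genes 1 rose, 3 fell and 4 did not pass, against 12.9% of all genes higher and 10.5% lower. Their median log2 difference was -0.07. The subunits of Rab geranylgeranyl transferase moved in opposite directions. Rabggtb, the beta subunit, went from 9.22 ± 0.04 to 8.69 ± 0.11 (log2, SD, n = 4) and fell by 0.53 (SE 0.07, limma adjusted p = 9.71e-05). Rabggta, the alpha subunit, went from 8.03 ± 0.08 to 8.34 ± 0.07 and rose by 0.30 (SE 0.07, limma adjusted p = 0.00409). Both calls held in all 20 settings. Chm, the Rab escort protein, and Pggt1b, the beta subunit of geranylgeranyl transferase I, fell by 0.26 and 0.25, and each lost its call in 7 of 20 settings. For both these included median centring and leaving out unloaded array 1 or 4, acLDL array 1 or unloaded arrays 1 and 4. Chm also lost its call without acLDL array 3 or 4 (adjusted p up to 0.200), and Pggt1b without unloaded array 2 or acLDL array 2 (adjusted p up to 0.123). Fnta, the alpha subunit shared by the farnesyl and geranylgeranyl enzymes, differed by -0.08 (adjusted p = 0.567).

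Of 5 genes that process prenylated proteins or degrade them, 1 rose, 1 fell and 3 did not pass. Over all genes 12.9% were higher and 10.5% lower. Zmpste24, the protease that matures farnesylated prelamin A, fell by 0.35 (SE 0.07, limma adjusted p = 0.00274), a call that held in all 20 settings. Averaged over the probe sets of Zmpste24, the difference was smaller, -0.23 (limma adjusted p = 0.0158). No setting read its dimmer probe sets alone. Pcyox1, which breaks down prenylcysteine, rose by 0.24, a call lost in 5 of 20 settings. These were centring over the genes tested and leaving out unloaded array 2 or 3, acLDL array 1 or unloaded arrays 2 and 3 (adjusted p up to 0.156). Rce1, the protease that trims the tail of prenylated proteins, differed by 0.04 (adjusted p = 0.712).

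**Figure D4:**
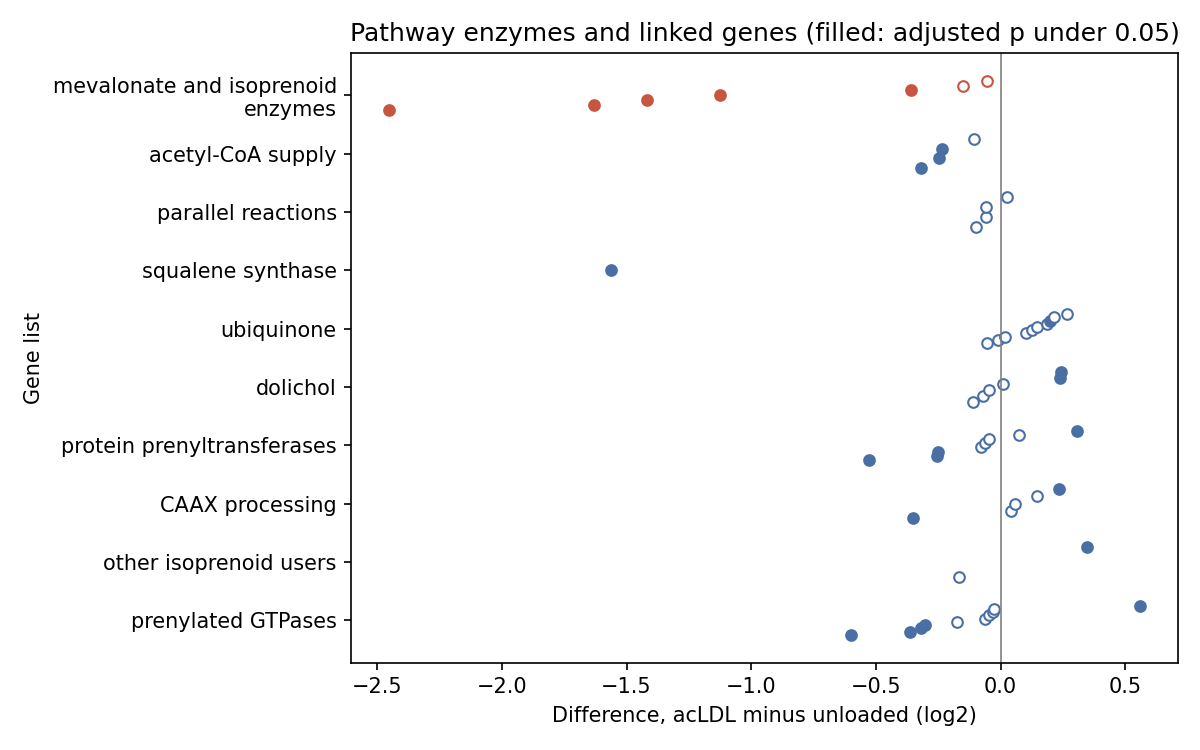
Each point is the log2 difference between acLDL and unloaded arrays (x axis) of 1 gene, filled where the limma adjusted p was under 0.05, with the 7 mevalonate and isoprenoid enzymes in red and 9 lists of linked genes in blue. Lowest lie Idi1, Hmgcs1, Fdps and Mvd in red and the squalene synthase gene Fdft1 in blue, and the other linked genes lie between -0.60 and 0.56.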

How the data were processed

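Biotin-labelled total RNA of 8 cultures was measured on Affymetrix arrays, per the labels' protocols. The deposited values are log2 expression values per probe set, made by RMA per the submitters' processing notes. Which version of RMA was run is not stated there. The table held 35557 probe sets, of which the annotation listed 23410, with 1 symbol for 21789 and several for 1621. The brightest probe set by mean over the 8 arrays represented each gene. Each log2 difference is acLDL minus unloaded, fitted with limma 3.58.1 in R 4.3.3 (lmFit, eBayes, two-sided), adjusted over 19938 genes, threshold 0.05. Pairs of enzymes were compared with exact permutation tests (scipy 1.17.1). The limma step was tested on simulated data.

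The enzymes and lists were chosen with earlier results of these data known. Besides the 7 enzymes, the text names, per list, the 3 largest changes past the threshold and the brightest gene not past it, all parallel and adjacent enzymes, the 2 nearest profiles per enzyme and opposite-strand genes starting within 1 kb. Pggt1b, Coq5, Coq8b and the changed cell type markers were named after their values were seen. Some GTPases that the rule selects are not reported here. Settings tried were a replicate block, other probe set rules, a filter on dim genes, other normalisations, variance priors and array weights, and leaving out arrays. The number of arrays limits precision, with a median standard error of 0.074 for log2 differences.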

Additional observations from a re-analysis of the deposited data

How the results depend on the processing

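Of 4650 genes past the threshold, 2565 were higher and 2085 lower. Centring each array on its median gave 2802 higher and 1390 lower, while centring over the genes tested, a setting chosen after seeing the data, gave 2087 and 2082. The median shift of all genes stayed between -0.02 and 0.04 (log2) over the scalings. Calls and directions of Hmgcs1, Mvd, Idi1 and Fdps held in every setting, with Idi1 between -2.56 and -2.34, and Mvk and Pmvk did not pass in any (adjusted p 0.0714 or above). Ggps1 lost its call, at -0.24, without unloaded arrays 1 and 4, which left 4 enzymes past the threshold. Leaving out each array in turn gave 5 enzymes, 3618 to 4590 genes over the whole table and 12 to 20 linked genes past the threshold, the lowest counts without acLDL array 1. Repeated quantile normalisation gave 18 unequal pairs, and median centring and cyclic loess gave 19 each. Without any 1 array, or without a pair, the 19 unequal pairs became 0. This was fixed in advance, because 3 arrays against 4 cannot give an exact p below 0.0571, nor 2 against 4 below 0.133. Whether equal replicate numbers share a mouse or a day is not given in the labels and cannot be settled from these values. Deviations from group means correlated at 0.11, -0.16, 0.30 and 0.14 across genes for numbers 1 to 4. Of the 4 unloaded arrays, 1 correlated best with the acLDL array of its own number. With the replicate block, 4860 genes, 5 enzymes and 21 linked genes passed, and the Ggps1 adjusted p was 0.0122. RMA compresses dim genes, so small differences of Idi2, Acat3 and Hmgcll1 are not resolved. The difference of Pmvk, which lay not far above the olfactory percentile, may be understated.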

Other observations

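Small GTPases that carry farnesyl or geranylgeranyl anchors were set beside the enzymes. Of 12 listed, 10 were measured, with 1 higher, 4 lower and 5 not past the threshold of the limma fit, against 12.9% of all genes higher and 10.5% lower. Rap1a, a GTPase of integrin signalling, went from 10.32 ± 0.12 to 9.72 ± 0.11 (log2, SD, n = 4) and fell by 0.60 (SE 0.08, limma adjusted p = 0.000106). Nras fell by 0.36 on the log2 scale (SE 0.07, limma adjusted p = 0.00175). The gene that rose and the other changed GTPases are not described here.

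Among other users of isoprenoids, Cox10, which farnesylates heme for cytochrome oxidase, rose by 0.35 (log2, SE 0.06, limma adjusted p = 0.00145). Trit1, which modifies transfer RNA with an isopentenyl group, differed by -0.17 (SE 0.09, adjusted p = 0.197) and did not pass.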
